A study of Mus musculus with 8 samples.

Results

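The 41 genes described here are proneural factors and early neuronal genes, chosen by symbol: 19 transcription factors that start or follow neuronal commitment, and 22 genes for the cytoskeleton, RNA-binding, adhesion and vesicle proteins that young neurons make. All 41 were found on the array. They account for 42 of the 23410 transcript clusters that have a gene symbol, since *Stmn3* has a second one. A transcript cluster is the set of probes along a gene that is summarised into a single value. Expression was measured in neural progenitor (NP) cultures made from mouse embryonic stem (ES) cells that had spent 4 days in N2B27, a medium without serum that turns them to a neural fate. There were 4 cultures of *Sox3* null cells and 4 of a control line, both derived from R1 ES cells. They came from 2 separate differentiation series, called batches, with replicates 1 and 2 of both lines in batch 1 and replicates 3 and 4 in batch 2. In the null line a GFP reporter replaces the *Sox3* coding sequence. The control line is labelled "Conditional" and "Sox3 positive". The study's results state that it carries a conditional *Sox3* allele, although its methods call the control samples wild type. Each genotype is a single ES line, so line and genotype cannot be told apart, and p-values measure the spread between these cultures. Values are log2 signals, and a difference of 1 is a doubling of signal.

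Neurogenesis turns on a handful of basic helix-loop-helix (bHLH) proteins. The neurogenins commit a progenitor to the neuronal fate and switch on Notch ligands, which hold the neighbouring cells back as progenitors, and then NeuroD, Nhlh, Ebf and zinc finger factors carry the committed cell through cell cycle exit and migration. SoxB1 proteins such as SOX3 are made in the progenitors, are lost as neurons form, and are known to counteract proneural proteins. Tubulin beta III, doublecortin, MAP2 and the Hu proteins are the classic signs of a young neuron.

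*Sox3*, the deleted gene, had log2 signals of 9.92, 9.84, 9.73 and 9.76 in control replicates 1 to 4 and 8.39, 8.56, 8.67 and 8.37 in the null replicates. Its log2 fold change was -1.31 (adjusted p = 3.87e-05 from limma), and the genotype labels match it on each array. The NP label fits the markers: in all cultures *Sox2* lay between 12.34 and 12.64, *Pax6* between 10.98 and 11.23 and *Sox1* between 10.97 and 11.62, where the median transcript cluster is at 7.67. As a measure of background, 1035 olfactory receptor transcript clusters had a median of 4.79 and a 95th percentile of 6.16. All 41 neuronal genes had a mean above that percentile and 28 lay above the median of all transcript clusters. Some were only just above that percentile, such as *Isl1* (mean 6.28), *Myt1* (6.36) and *Lhx1* (6.36). *Sox3* itself read 8.37 to 8.67 in the null cultures, also above that percentile, although its coding sequence is replaced there. A mean above the percentile therefore does not show that a gene was expressed, and whether any of the 41 was detected was not tested. These were bulk cultures, in which fewer cells of a type and less RNA per cell cannot be told apart.

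Of the 41 genes, 5 were higher in *Sox3* null cells at an adjusted p of 0.05 or less: the transcription factor genes *Nhlh1*, *Neurod4* and *Ebf3* and the cytoskeletal genes *Map2* and *Tagln3*. None was lower and 36 did not pass. Over all transcript clusters tested, 1.15% were higher and 0.393% were lower by the same test. In a plain linear model, without the moderated variances of limma, none of the 41 passed. Of the 5, *Nhlh1* and *Tagln3* also changed by at least 1.4-fold, the size threshold the study used, where 0.431% of all transcript clusters met both criteria. *Tagln3* is among the genes the study selected on these same arrays, so its passing is not independent evidence, and without it 4 of 40 were higher. The other members were also chosen with earlier results of these data known, so that count is not independent evidence either. At an unadjusted p under 0.05, 14 members were higher and 4 lower, where 7.31% of all transcript clusters were higher and 5.8% lower. The genotype effect was above 0 in 30 of the 41, with a median of 0.07, where the median over all transcript clusters was 0.00. Without *Sox3* null replicate 4 the median of the members was 0.03.

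The 3 transcription factor genes that passed are shown first by the 250 bases before their start sites, as the regulatory sequence nearest to the measured transcripts. Sequences and positions are from RefSeq on the GRCm38.p6 build, 5′ to 3′ on the strand of the gene. *Nhlh1* lies at chr1:172057597-172057846, *Neurod4* at chr10:130280255-130280504 and *Ebf3* at chr7:137314446-137314695, each on the minus strand. Capitals mark CAGNTG, a form of the E-box that bHLH proteins bind, and ACAANG, a core of the Sox binding sequence, each on either strand (ACAANG then reads CNTTGT).
Nhlh1: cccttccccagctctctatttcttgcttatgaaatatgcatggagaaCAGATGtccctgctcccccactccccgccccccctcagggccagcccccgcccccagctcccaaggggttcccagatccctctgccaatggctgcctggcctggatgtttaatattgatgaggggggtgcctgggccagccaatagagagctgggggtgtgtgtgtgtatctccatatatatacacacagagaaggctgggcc
Neurod4: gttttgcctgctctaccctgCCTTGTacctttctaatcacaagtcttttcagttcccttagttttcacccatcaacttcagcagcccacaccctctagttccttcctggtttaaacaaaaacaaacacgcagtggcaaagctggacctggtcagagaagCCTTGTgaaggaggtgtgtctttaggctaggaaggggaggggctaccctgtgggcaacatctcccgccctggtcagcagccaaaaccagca
Ebf3: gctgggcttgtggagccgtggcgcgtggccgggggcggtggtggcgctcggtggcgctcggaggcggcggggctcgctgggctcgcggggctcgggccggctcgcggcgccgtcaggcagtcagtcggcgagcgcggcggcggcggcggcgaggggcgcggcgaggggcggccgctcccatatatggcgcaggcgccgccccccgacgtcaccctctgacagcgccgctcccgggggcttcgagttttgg
The *Nhlh1* sequence held 1 CAGNTG, which begins 203 bases before the start site, and no ACAANG. That of *Neurod4* held no CAGNTG and 2 matches to ACAANG on the other strand, at 230 and 91 bases before the start site. The *Ebf3* sequence, and those of *Map2* and *Tagln3*, held neither. Of the 41 genes 30 had a promoter entry, and 36.7% of these held CAGNTG and 43.3% held ACAANG. Of 27025 genes with an entry, 44.5% held the first and 36.6% the second. A match is a description of the sequence and not a binding site.

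Of the 6 bHLH genes, *Nhlh1* and *Neurod4* rose and 4 did not pass. *Nhlh1* encodes a bHLH factor of newly born neurons. It had signals of 8.13, 8.06, 8.23 and 8.43 in control replicates 1 to 4 and 8.67, 8.49, 8.67 and 9.21 in *Sox3* null replicates 1 to 4. Every null culture lay above every control culture, and null replicate 4 was the highest. The log2 fold change was 0.55 (standard error 0.10, 95% interval 0.32 to 0.78, adjusted p = 0.0264), a 1.46-fold rise, with 0.48 in batch 1 and 0.61 in batch 2. Without null replicate 4 it was 0.43 and still passed. Of the 8 fits that left out 1 array it passed in 4. It missed the threshold without control replicate 1, 2 or 3 and without null replicate 1, where the adjusted p was highest at 0.102.

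*Neurod4* encodes a bHLH factor that acts after the neurogenins. Control replicates 1 to 4 read 7.70, 7.91, 8.12 and 8.20 and the null replicates 8.16, 7.96, 8.59 and 8.51. The null cultures were above the controls within each batch, but the genotypes overlapped across batches, because all batch 2 signals of a genotype lay above its batch 1 signals. Null cells exceeded controls by 0.32 on the log2 scale (standard error 0.07, 95% interval 0.17 to 0.47, adjusted p = 0.0451), or 1.25-fold, with 0.26 and 0.39 in the 2 batches. In the paired fit, with the replicate number as a block, the adjusted p of *Neurod4* was 0.0899. It passed in 2 of the 8 fits without 1 array, those without control replicate 2 and without null replicate 2, and reached 0.165 without control replicate 1.

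The nearest relatives of both genes did not pass the test. *Nhlh2*, the closest relative of *Nhlh1*, had 6.41, 6.72, 6.90 and 6.84 in the controls and 6.70, 6.46, 6.92 and 6.77 in the null cultures. The groups overlapped fully, and the difference was -0.0047 on the log2 scale (95% interval -0.18 to 0.17, adjusted p = 0.994), with a sign that turned between batches. *Neurod1*, a NeuroD factor that drives terminal differentiation, had 8.0, 8.21, 7.68 and 7.77 in the controls and 8.21, 8.04, 7.75 and 7.96 in the null cultures. These overlapped as well, with a difference of 0.07 (95% interval -0.08 to 0.23, adjusted p = 0.74).

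Of the neurogenins themselves, *Neurog1* had 8.05, 7.93, 8.14 and 8.32 in the controls and 8.09, 8.20, 8.41 and 8.78 in the null cultures. Within each batch both null cultures lay above both controls, but with a difference of 0.26 (95% interval 0.07 to 0.45) the gene did not pass (adjusted p = 0.216). *Neurog2* was dim, with a mean of 6.56 ± 0.0467 in the controls and 6.52 ± 0.0476 in the null cultures (SD over 4 cultures each). Its log2 fold change was -0.04 (adjusted p = 0.788).

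**Figure D1:**
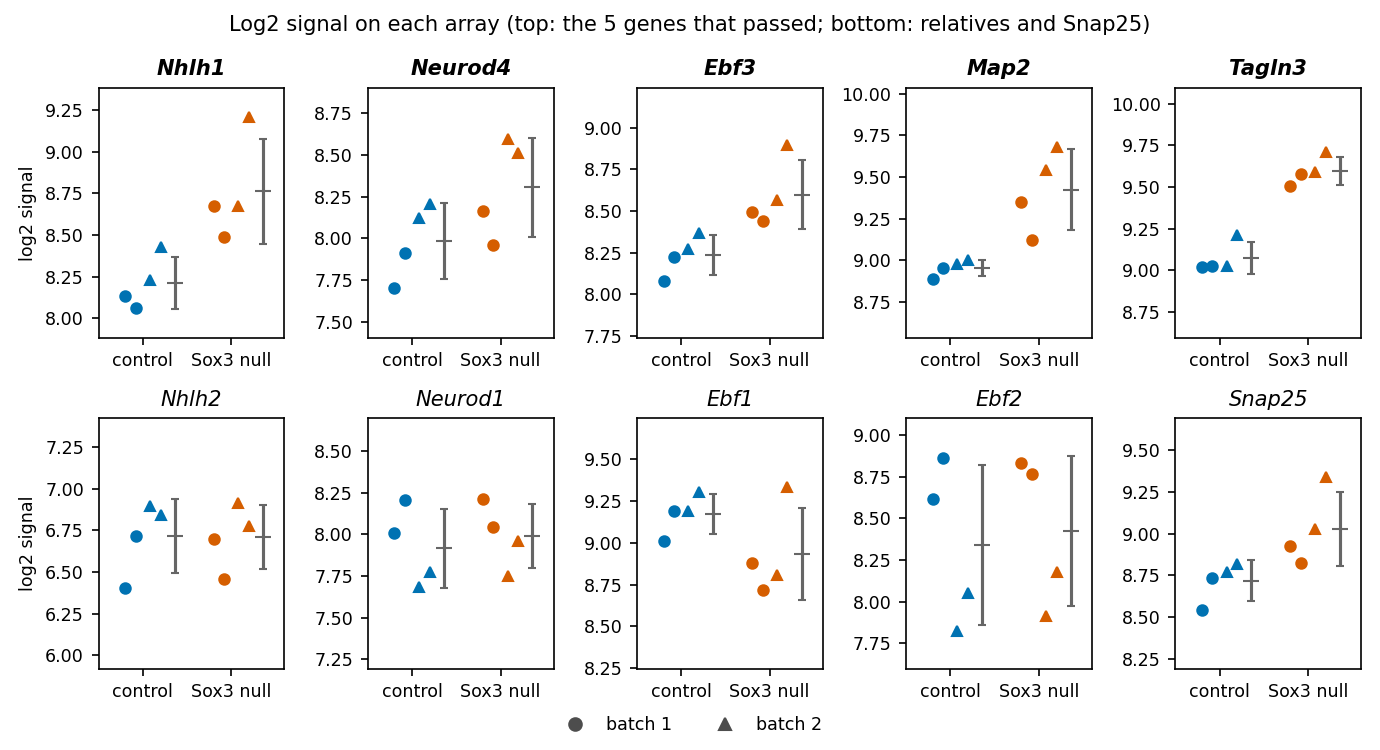
Log2 signal (vertical axis, 1.5 units in each panel) of 10 genes on each of the 8 arrays, by genotype. Circles are batch 1 cultures, triangles batch 2 cultures, and the dash with its bar is the mean ± SD of the 4 cultures. In the top row (*Nhlh1*, *Neurod4*, *Ebf3*, *Map2* and *Tagln3*) the null cultures lie above the controls of their batch, and in the bottom row *Nhlh2*, *Neurod1*, *Ebf1* and *Ebf2* overlap while *Snap25* does not.

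The 3 zinc finger genes, which encode factors that act beside or below the bHLH proteins, all had a log2 fold change above 0 and none passed. *Insm1*, needed for the formation of basal progenitors, had 0.12 (adjusted p = 0.414). *St18* had 0.19 (adjusted p = 0.353), with 0.03 in batch 1 and 0.35 in batch 2. *Myt1*, which with *St18* belongs to the myelin transcription factor family, had signals of 6.29, 6.32, 6.27 and 6.31 in the controls and 6.52, 6.38, 6.45 and 6.34 in the null cultures. All null cultures lay above all controls although the log2 fold change was no more than 0.13 (95% interval 0.01 to 0.24, adjusted p = 0.331).

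The 3 Ebf genes encode HLH factors that work downstream of the neurogenins in neuronal differentiation, and 1 of them passed. *Ebf3* had 8.08, 8.22, 8.27 and 8.37 in the controls and 8.49, 8.44, 8.56 and 8.90 in the null cultures. The groups did not overlap. Its log2 fold change was 0.36 (standard error 0.07, 95% interval 0.20 to 0.53, adjusted p = 0.0393), or 1.29-fold, with 0.31 in batch 1 and 0.41 in batch 2. It is the least stable of the 5 in the fits without 1 array, since it passed in 1 of 8 (without null replicate 3) and reached an adjusted p of 0.141 without control replicate 1.

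*Ebf1* had 9.01, 9.19, 9.19 and 9.30 in the controls and 8.88, 8.72, 8.81 and 9.33 in the null cultures. Of the null cultures 3 lay below all controls, and null replicate 4 lay above them. Its difference of -0.24 (95% interval -0.47 to -0.01) did not pass (adjusted p = 0.343), and without null replicate 4 it was -0.36 (adjusted p = 0.0543). Over the 8 fits without 1 array it ran from -0.36 to -0.15 and passed in none. The adjusted p was highest without control replicate 1, at 0.532. *Ebf2* had 8.62, 8.86, 7.83 and 8.05 in the controls and 8.83, 8.77, 7.91 and 8.18 in the null cultures, so the batches were far apart and the genotypes were not. Its log2 fold change for genotype was 0.08 (95% interval -0.09 to 0.26, adjusted p = 0.741). The difference between the effects on *Ebf1* and *Ebf3* was not tested.

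None of the 7 homeodomain genes, whose products fix the identity of neuronal types, passed the test. *Onecut1*, of the cut class, had 7.92, 7.86, 7.34 and 7.60 in the controls and 7.86, 8.03, 7.74 and 8.05 in the null cultures. The null cultures were above the controls in batch 2 only, and the log2 fold change was 0.24 (adjusted p = 0.325). *Onecut2* had 9.29, 9.26, 8.78 and 9.17 in the controls and 9.31, 9.41, 8.82 and 9.31 in the null cultures. Its groups overlapped, with a difference of 0.09 (95% interval -0.15 to 0.32, adjusted p = 0.806).
*Lhx5*, a LIM homeodomain gene of dorsal and intermediate interneurons and of the forebrain, had 6.84, 7.0, 6.60 and 6.74 in the controls and 6.45, 6.80, 6.50 and 6.50 in the null cultures. Both null cultures lay below both controls in each batch, and the log2 fold change of -0.23 (95% interval -0.41 to -0.06) did not pass (adjusted p = 0.224). Its relative *Lhx1* had -0.03 (adjusted p = 0.909). The sensory and motor neuron factors *Isl1* (0.11), *Pou4f1* (0.12) and *Tlx3* (0.02) had adjusted p-values of 0.444, 0.473 and 0.934.

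Of the 10 genes for microtubule, actin and transport proteins, *Map2* and *Tagln3* rose. *Map2* encodes a microtubule-associated protein of dendrites. It had 8.89, 8.96, 8.98 and 9.0 in the controls and 9.35, 9.12, 9.54 and 9.68 in the null cultures. The controls lay close together, the null cultures spread further and all were above the controls. Null cells exceeded controls by a log2 fold change of 0.47 (standard error 0.08, 95% interval 0.30 to 0.64, adjusted p = 0.0132), or 1.38-fold. *Map2* missed the threshold narrowly in 2 of the 8 fits without 1 array, with an adjusted p of 0.0555 without null replicate 1 and 0.0524 without control replicate 3.

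*Tagln3*, also known as neuronal protein NP25, encodes a calponin-related protein of neurons that associates with actin. It had 9.02, 9.03, 9.03 and 9.21 in the controls and 9.50, 9.58, 9.59 and 9.71 in the null cultures. The null cultures were all above the controls, with a gap between the groups wider than the range within either. The rise was 0.52 on the log2 scale (standard error 0.06, 95% interval 0.40 to 0.65, adjusted p = 0.0013), or 1.44-fold, with 0.52 in batch 1 and 0.53 in batch 2. It passed in each of the 8 fits without 1 array (adjusted p up to 0.00762).

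*Tubb3*, which encodes the tubulin beta III of young neurons, had 9.44, 9.13, 9.48 and 9.33 in the controls and 9.57, 9.45, 9.78 and 9.81 in the null cultures. Both null cultures were above both controls in each batch, but the lowest null culture lay below the highest control. At a difference of 0.31 (95% interval 0.14 to 0.48) the gene missed the threshold (adjusted p = 0.0883). It passed in 1 of the 8 fits without 1 array, that without control replicate 1 (adjusted p = 0.0229). *Dcx*, for the microtubule protein doublecortin of migrating neurons, had 0.22 (95% interval 0.03 to 0.42, adjusted p = 0.294).

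*Stmn2* and *Stmn3* encode stathmins, which bind free tubulin in growing axons. *Stmn2* had 12.20, 12.10, 11.75 and 11.72 in the controls and 11.89, 11.78, 11.77 and 11.65 in the null cultures. The null cultures lay below the controls in batch 1 and on both sides of them in batch 2. Over both batches the difference was -0.17 (95% interval -0.32 to -0.02, adjusted p = 0.317).
*Stmn3* had 10.37, 10.24, 10.59 and 10.54 in the controls and 10.01, 10.14, 10.68 and 10.51 in the null cultures. It showed the same order, with a log2 fold change of -0.10 overall (adjusted p = 0.618), -0.23 in batch 1 and 0.03 in batch 2. The second transcript cluster of *Stmn3* had a mean of 5.41, below the olfactory receptor percentile, and a log2 fold change of 0.10.
The other 4 genes of this group did not pass. *Mapt*, for the axonal protein tau, had 0.0024 (95% interval -0.14 to 0.15). *Crmp1* (0.03) and *Dpysl3* (0.04), for collapsin response mediator proteins, and *Kif5c* (0.06), for a kinesin heavy chain, had 95% intervals from -0.09 to 0.14, -0.06 to 0.15 and -0.07 to 0.19.

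The 4 genes for neuronal RNA-binding proteins lay above 0 and did not pass. They were the Hu genes *Elavl4* (0.20, adjusted p = 0.195), *Elavl3* (0.17, adjusted p = 0.425) and *Elavl2* (0.05, adjusted p = 0.761) and *Rbfox3*, which encodes the NeuN antigen of mature neurons (0.04, adjusted p = 0.839). Of the 5 adhesion and growth cone genes none passed. *Ncam1*, the neural cell adhesion molecule, had 9.35, 9.46, 9.13 and 9.19 in the controls and 9.61, 9.62, 9.28 and 9.42 in the null cultures. The null cultures were above the controls within each batch, and the log2 fold change of 0.20 (95% interval 0.09 to 0.32) came short of the threshold (adjusted p = 0.103).

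*L1cam*, an adhesion molecule of growing axons, had 0.04 (adjusted p = 0.904). *Nrcam* (-0.04, adjusted p = 0.794) and *Cntn2* (-0.12, adjusted p = 0.587) encode other immunoglobulin-class adhesion proteins of axons, and *Gap43* (-0.07, adjusted p = 0.677) a growth cone protein. Of the 3 vesicle and synaptic genes, *Snap25*, a part of the complex that fuses vesicles, had 8.54, 8.74, 8.77 and 8.82 in the controls and 8.92, 8.82, 9.03 and 9.34 in the null cultures. The lowest null culture lay only just above the highest control, so the groups did not overlap, and the log2 fold change of 0.31 (95% interval 0.14 to 0.48) missed the threshold (adjusted p = 0.0877). *Syt1*, the calcium sensor of vesicle release, had 0.02 (adjusted p = 0.929), and *Chga*, of dense-core granules, had -0.11 (adjusted p = 0.381).

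Over all 41 genes, the 4 null cultures lay above all 4 controls in 6 (*Nhlh1*, *Ebf3*, *Map2*, *Tagln3*, *Snap25* and *Myt1*) and below them in none. Among all transcript clusters the shares were 2.41% above and 2.19% below. By role, 3 of the 19 transcription factor genes and 2 of the 22 other genes passed as higher, where 1.15% of all transcript clusters did. The 2 include *Tagln3*, which the study selected on these arrays. The medians were 0.11 and 0.04, and the difference between the roles was not tested. For the 36 genes that did not pass, the 95% interval lay within a 1.4-fold change in either direction in every case.

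**Figure D2:**
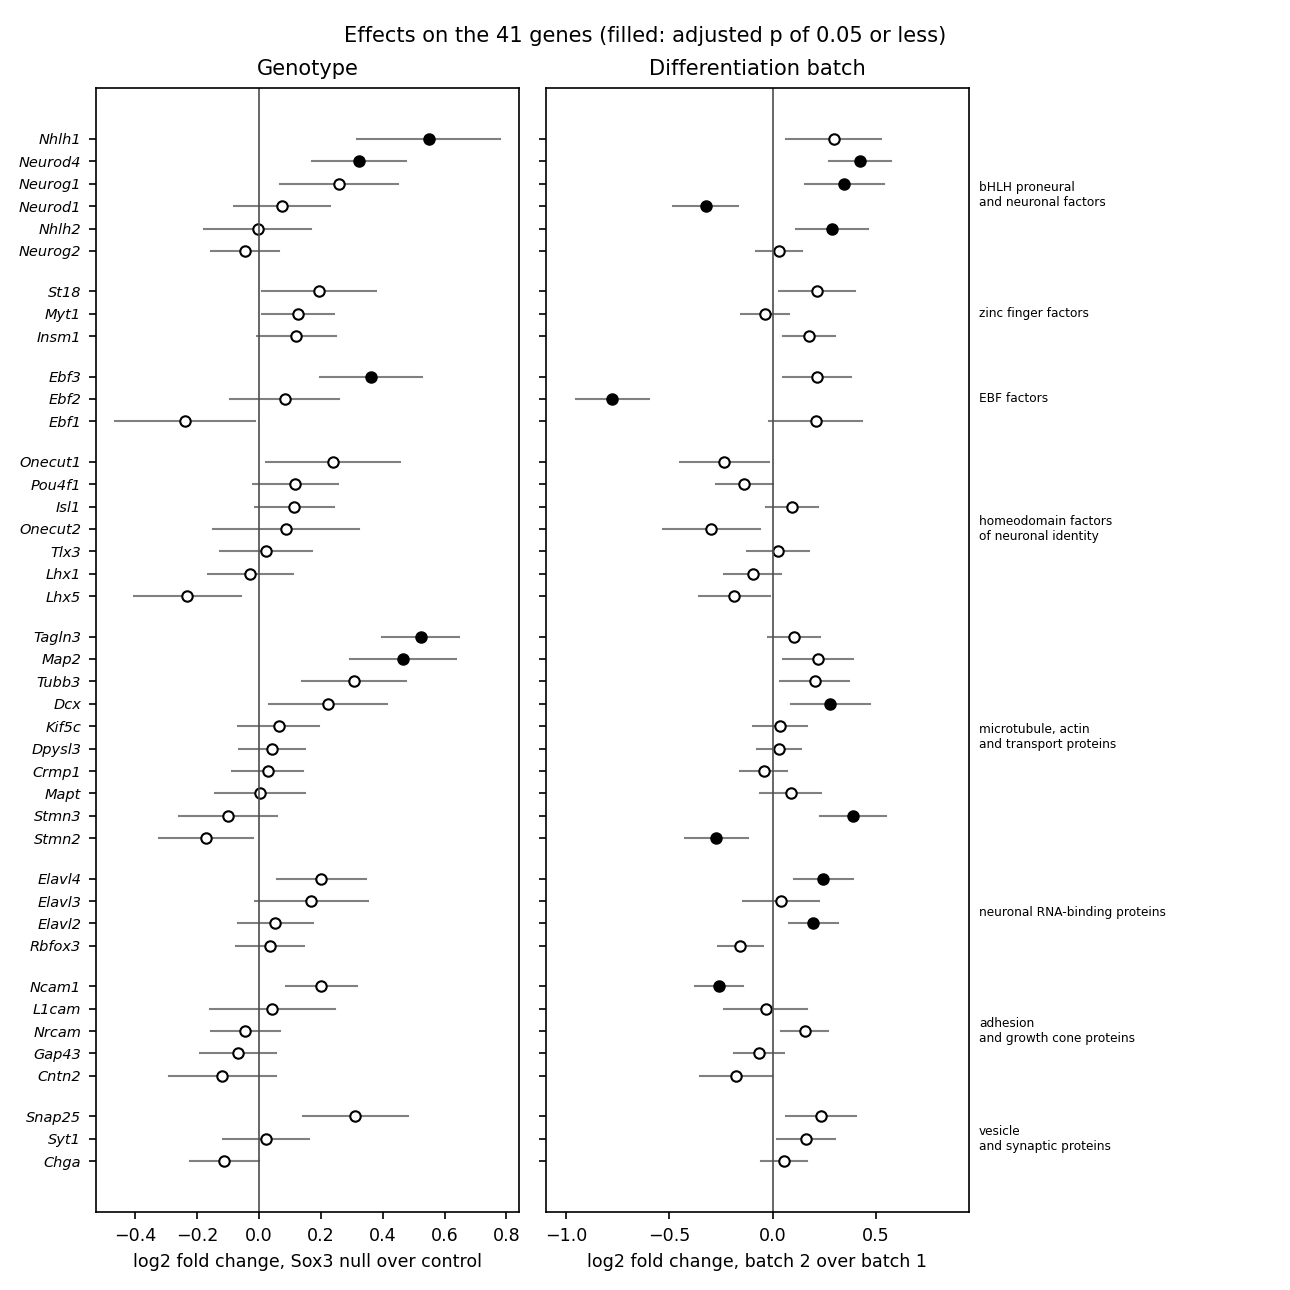
Log2 fold change of each of the 41 genes for genotype (left, *Sox3* null over control) and differentiation batch (right, batch 2 over batch 1), grouped by role, with bars for the 95% interval and filled circles for an adjusted p of 0.05 or less. On the left 5 circles are filled, all to the right of 0, and on the right 11 are, 7 above 0 and 4 below.

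The genotype effect was compared between the 2 differentiation series. It was above 0 in both batches for 26 genes, below 0 in both for 7 and of different sign for 8. Over all transcript clusters 30.9% were above 0 in both batches and 30.6% below. In 12 genes both null cultures lay above both controls in each batch, and in 2 (*Lhx5* and *Chga*) below, where the shares of all transcript clusters were 7.01% and 5.04%. The median was 0.05 in batch 1 and 0.11 in batch 2, and the effect was larger in size in batch 2 for 27 of the 41. The share with a larger effect in batch 2 was not counted over all transcript clusters. No member passed the test of genotype by batch, and 0% of all transcript clusters did. At an unadjusted p under 0.05 there were 3: *Map2* (0.31 in batch 1 and 0.62 in batch 2), *Stmn2* (-0.31 and -0.03) and *L1cam* (-0.15 and 0.23).
For *Map2* the difference between batches was 0.31 (95% interval 0.02 to 0.60). The adjusted p was 1.00 for each, where 715 transcript clusters reached an unadjusted p under 0.05.

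**Figure D3:**
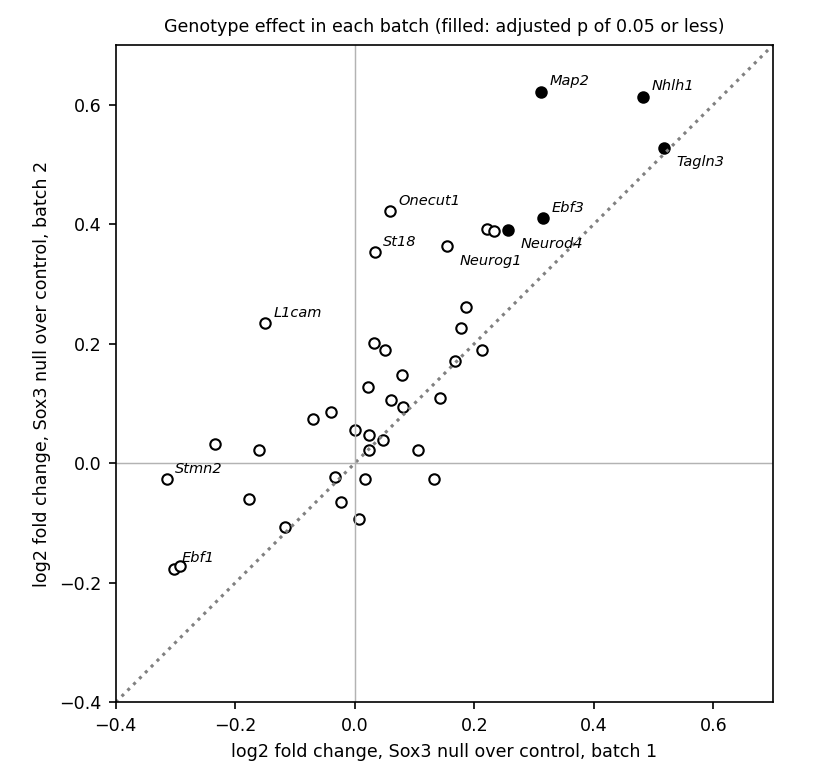
Genotype effect (log2 fold change, null cells over controls) in batch 1 on the horizontal and in batch 2 on the vertical axis, each from 2 cultures a genotype. A circle stands for 1 of the 41 genes, filled where its adjusted p over both batches was 0.05 or less, and the dotted line marks equal effects. The 5 filled circles lie above 0 in both batches, and *Tagln3* falls nearly on the line.

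The batches themselves differed at more of these genes than the genotypes did. The same held over all transcript clusters, where 1.15% were higher and 0.393% lower by genotype. All 8 arrays enter both comparisons, so they are not independent. By the same test 7 genes were higher and 4 were lower in batch 2, where 10.9% of all transcript clusters were higher and 9.35% lower. The 7 were *Neurod4* (0.42), *Stmn3* (0.39), *Neurog1* (0.35), *Nhlh2* (0.29), *Dcx* (0.28), *Elavl4* (0.24) and *Elavl2* (0.20). The 4 were *Ebf2* (-0.78), *Neurod1* (-0.33), *Stmn2* (-0.27) and *Ncam1* (-0.26). *Ebf2* had the largest batch effect of the 41, with means of 8.77 in batch 1 and 7.99 in batch 2 (adjusted p = 0.000158), a 1.71-fold difference.
For 23 of the 41 genes the batch effect was larger in size than the genotype effect, a count not made over all transcript clusters. Paralogs also parted here: *Neurod4* was higher in batch 2 and *Neurod1* lower, and *Stmn3* was higher and *Stmn2* lower. The count of genes higher in batch 2 ran from 4 to 10 when 1 array was left out: it was 4 without control replicate 1 or null replicate 1, 2 or 4.

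The arrays were also compared over the whole set. The mean log2 signal over the 41 genes was 8.17, 8.17, 8.12 and 8.21 in control replicates 1 to 4 and 8.22, 8.23, 8.25 and 8.37 in the null replicates. The null cultures were above the controls, by the least between null replicate 1 and control replicate 4. *Sox3* null replicate 4 had the highest signal of all 8 arrays in 18 of the 41 genes and the highest of its batch in 25, and control replicate 3 the lowest of all in 13. These counts were not made over all transcript clusters, so they do not show whether the pattern is particular to these genes. The count of genes that were higher moved with the array left out. It was 3 without null replicate 4 (*Map2*, *Nhlh1* and *Tagln3*), 3 without control replicate 1, 2 or 4, and 1 (*Tagln3*) without null replicate 1 or control replicate 3.

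**Figure D4:**
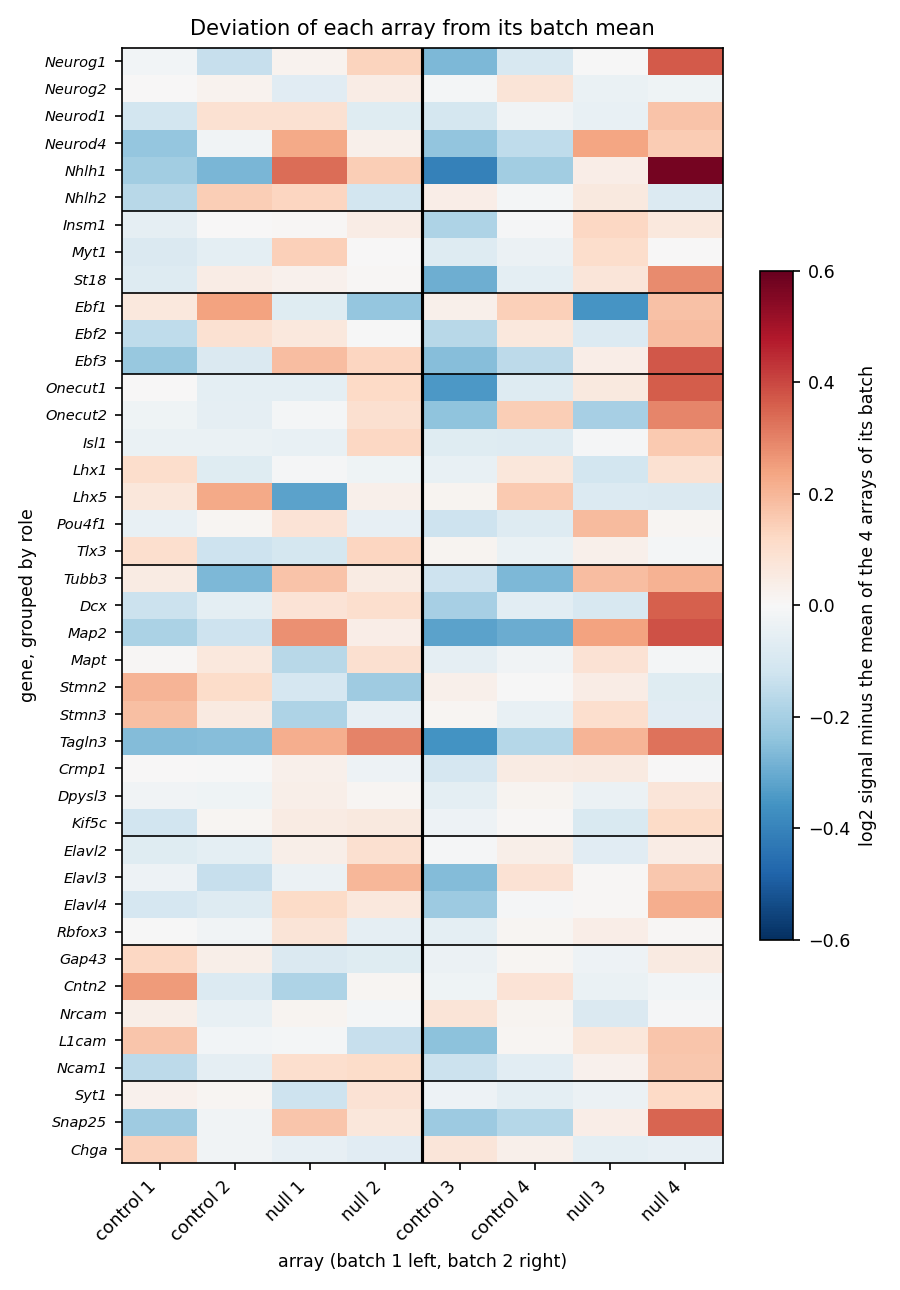
Deviation of each array from the mean of the 4 arrays of its batch (colour, log2 units) for the 41 genes, in rows grouped by role, with batch 1 arrays left and batch 2 arrays right. In batch 2 the null replicate 4 column is the highest for 25 of the 41 genes, and the rows of *Nhlh1*, *Map2* and *Tagln3* are higher in all 4 null columns.

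Other genes of the same pathways were examined from 5 lists. Of 75 listed genes 71 were measured, 2 were higher in null cells and none was lower, with a median log2 fold change of 0.04. Over all transcript clusters 1.15% were higher and 0.393% lower, and in 2.41% every null culture lay above every control. These lists too were chosen with earlier results of these data known. Of 22 measured proneural partners and targets, *Dll1*, the Notch ligand that proneural proteins switch on, rose. It had 9.79, 9.81, 9.49 and 9.57 in the controls and 10.07, 10.05, 9.84 and 9.95 in the null cultures, with no overlap and a log2 fold change of 0.31 (adjusted p = 0.013). Of 18 other cytoskeletal genes, *Map6*, whose product stabilises microtubules, rose. It had 8.16, 8.18, 8.08 and 8.09 in the controls and 8.58, 8.61, 8.39 and 8.50 in the null cultures, again with no overlap and a log2 fold change of 0.39 (adjusted p = 0.00251).

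None of the 10 inhibitors of neuronal differentiation passed. Those with the smallest p were *Id3*, which sequesters the partners of bHLH proteins (0.39, adjusted p = 0.074), and *Hey1*, a repressor below Notch (0.15, adjusted p = 0.249). Of the 10 inhibitors 7 lay above 0. Their list mean was higher in both null cultures than in both controls within each batch. It was 9.55, 9.51, 9.45 and 9.39 in control replicates 1 to 4 and 9.63, 9.62, 9.53 and 9.52 in the null replicates. None of 9 measured synaptic genes passed, led by *Sv2a* (-0.21, adjusted p = 0.193) and *Dlg4* (0.14, adjusted p = 0.348). The same held for 12 genes of transmitter synthesis and transport, led by the acetylcholine transporter *Slc18a3* (0.31, adjusted p = 0.0719) and the GABA transporter *Slc32a1* (-0.18, adjusted p = 0.211).

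Markers of the other cells that such cultures could hold were read on the same arrays. All 10 NP markers had a log2 fold change above 0, 1 of them (*Nes*, 0.49, adjusted p = 0.00947) passed, and the mean of the list was 11.63 to 11.80 in the controls and 11.85 to 11.99 in the null cultures. Of 10 pluripotency markers *Nanog* fell (-0.37, adjusted p = 0.0464), and the mean of the list was 8.63 to 8.91 in the controls and 8.59 to 8.72 in the null cultures. Of 6 neural crest markers *Tfap2b* (0.71) and *Ednrb* (0.51) rose, while 3 of the 6 lay below 0, with a list mean of 7.80 to 8.10 against 8.03 to 8.23. *Ednrb* is among the genes the study selected on these same arrays, so its rise is not independent evidence. The study reports that its change was not reproduced by qRT-PCR on independent samples. The means of the progenitor and crest lists were higher in both null cultures than in both controls within each batch. In the crest list *Tfap2b* and *Ednrb* had the largest rises. *Tfap2a* had 0.18, and *Sox10* (-0.08), *Foxd3* (-0.12) and *Erbb3* (-0.16) lay below 0, none of which passed. The crest mean was not computed without *Tfap2b* and *Ednrb*.
None of 9 mesoderm and endoderm markers passed (list mean 6.81 to 7.12 in the controls and 6.78 to 7.02 in the null cultures), nor did any of 10 markers of astroglia and oligodendrocytes (6.73 to 6.83 and 6.70 to 6.83), of which *Gfap*, *Aqp4* and *S100b* were below the olfactory receptor percentile. Of 8 fibroblast markers *Thy1* fell (-0.51, adjusted p = 0.00525), with a list mean of 6.61 to 6.82 and 6.46 to 6.71, and *Dcn*, *Lum* and *Postn* were below that percentile. The sources differ on whether the ES cells had been kept on feeder fibroblasts, and a part of such cells in these values was not tested. Within each batch the means of the pluripotency list and of the mesoderm and endoderm list were lower in both null cultures than in both controls. For pluripotency the controls read 8.91, 8.88, 8.72 and 8.63 and the null cultures 8.72, 8.69, 8.61 and 8.59 in replicates 1 to 4. For mesoderm and endoderm the controls read 7.12, 7.06, 6.81 and 6.86 and the null cultures 6.86, 7.02, 6.79 and 6.78. The means of the progenitor, crest, pluripotency and germ layer lists thus separated by genotype within batches. The neuronal genes that passed were picked by that same contrast, and the part of these lists in their results was not tested.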

How the data were processed

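Total RNA from 8 cultures at Day 4 of N2B27 differentiation was hybridised to Affymetrix mouse gene arrays, 1 per culture. The authors deposited normalized log2 signals, 1 per transcript cluster. The submitters' processing notes name Partek. The normalization, the summary step and the genome build were not given in the sources used here, and the labels have the ES cells kept on gelatine before differentiation, where the study's methods name irradiated feeder fibroblasts. Genes were named from the platform annotation with symbols updated to RefSeq: of 35556 rows, 21789 had 1 symbol, 1621 several and 12146 none here.

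A linear model with genotype and batch was fitted to the 23410 named transcript clusters in limma 3.58.1 (R 4.3.3), with variances moderated by eBayes. The adjusted p-values given are from limma, with the Benjamini-Hochberg adjustment over all these transcript clusters. The methods name a 2-way ANOVA with batch as a factor. The same model without moderated variances, the plain linear model, is nearer in form to that ANOVA. No member passed in it, and *Tagln3* had an adjusted p of 0.0684. Genotype by batch was fitted in a second model. The median SD within groups after batch was 0.0869 on the log2 scale, and the number of arrays limits the precision. Only the genotype test of the main model was tried on simulated arrays. These had no batch effect and the same SD for every transcript cluster, so they do not cover the other steps.

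The members, the 5 pathway lists and the 6 marker lists were chosen with earlier results of these data known, and no test was run over a list. All 41 members are named. By rule, array values are given for those that passed, the 6 largest genotype effects, the 4 largest batch effects in each direction and the nearest relatives of the genes so chosen. Values of *Myt1*, *Onecut1*, *Lhx5*, *Tubb3* and *Ncam1* fall outside the rule and were added after they were seen. Of each pathway list the genes that passed are named, or else those with the smallest p. Listed genes without a transcript cluster of that single symbol were not analysed here. Where a gene has several transcript clusters, the brightest stands for it.

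Same-numbered arrays deviated together from their group means (correlations of 0.39, 0.45, 0.68 and 0.45 for replicates 1 to 4, which include the batch). After the batch was removed the correlation was -0.32 for replicates 1 and 2 and 0.30 for replicates 3 and 4, so the pairing rests on the batch that same-numbered arrays share. The replicate number was also fitted as a block. The alternatives were other sets of rows, other treatments of batch, other variance estimates, renormalization, array weights, averaged transcript clusters, separate fits of the batches and fits without 1 array.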

Additional observations from a re-analysis of the deposited data

Results flagged for a closer look

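Among the 82 groups of 4 cultures (41 genes in each genotype), 6 held a culture whose distance to the next exceeded Dixon's 95% critical value. The nominal rate of 1 in 20 holds for 4 cultures drawn alike. Here each group joins 2 batches, so the number expected by chance is not known. *Tagln3* was 9.21 in control replicate 4, with the other controls between 9.02 and 9.03. *Dpysl3* was 10.2 in control replicate 4 (others 10.1), and *Crmp1* was 10.6 in control replicate 3 (others 10.8). *Lhx5* was 6.80 in *Sox3* null replicate 2, with the others between 6.45 and 6.50, and *Cntn2* was 7.34 in the same culture (others 7.11 to 7.14). *Lhx1* was 6.20 in *Sox3* null replicate 3 (others 6.39 to 6.40). The cause was not tested.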

How the results depend on the processing

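Over 21 alternatives no member was lower in *Sox3* null cells. The 5 genes that were higher all passed when dim transcript clusters were left out, with an intensity trend, with robust variances and with averaged transcript clusters. With the replicate block in the paired fit, 4 passed and *Neurod4* did not, and no other genotype call on a member changed. *Neurod4* was also lost on renewed quantile normalization and with array weights. The count was 1 (*Tagln3*) over all rows of the table, without the batch term and with batch as a random block, and 0 in the plain linear model, in batch 1 alone and in batch 2 alone. The count with a 1.4-fold change was 1 in the first 3 of these settings and 0 in the other 3. When 1 array was left out, 1 to 4 genes were higher, 0 to 3 of them by 1.4-fold. The median effect ran from 0.03 to 0.09 in those fits. The number higher in batch 2 was 2 over all rows, 12 without dim transcript clusters, 2 in the plain linear model, 11 on quantile normalization and 4 to 10 without 1 array. The number lower was 2 in the plain linear model and 3 to 6 without 1 array. The sign of *Nhlh2* turned, to 0.025 on quantile normalization and 0.017 in batch 1 alone, and its effect ran from -0.071 to 0.053 without 1 array. *Stmn3* was 0.032 in batch 2 alone and *Onecut2* ran from -0.012 to 0.18 without 1 array. The cause of these moves was not tested, and each batch alone has 2 cultures of a genotype.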
